A study of Homo sapiens with 12 samples.

Results

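The small nucleolar RNAs measured here were all genes named by exactly 1 symbol per probe set whose symbol began with SNORD, SNORA or SCARNA followed by a digit. There were 192 of them among the 18417 named genes of the table. They comprised 115 C/D box RNAs (SNORD), 61 H/ACA box RNAs (SNORA) and 16 small Cajal body RNAs (SCARNA). The symbol alone decided membership, and no measured value entered that rule, though earlier results of these data were known when it was chosen.

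Small nucleolar RNAs are short, stable non-coding RNAs that pair with ribosomal RNA and guide its chemical modification. C/D box RNAs direct methylation of the ribose with the methyltransferase fibrillarin, and H/ACA box RNAs direct conversion of uridine to pseudouridine with the synthase dyskerin. Small Cajal body RNAs carry either or both boxes and act on spliceosomal RNAs. In human cells most are processed from the introns of host genes, many of which encode ribosomal proteins or are themselves non-coding.

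The cells were of 4 established human ALCL lines (anaplastic large cell lymphoma, a cancer of T cells), namely DEL, Karpas299, SUDHL-1 and SUPM2. Cultures in logarithmic growth were stained with Hoechst 33342 and sorted into a dye-low side population (SP) and a dye-retaining main population (MP). SUDHL-1 gave 3 SP and 3 MP arrays, and each other line gave 1 of each, 12 arrays in all. Triplicates were not said to be separate cultures, so p-values cover only how far these samples differ among themselves, which may be technical.

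Values are log2 signals per gene, so a difference of 1 is 2-fold, and the number of arrays limits their precision. The median of all genes was 5.25 to 5.37 on the SUDHL-1 arrays and 5.76 to 5.80 on those of the other lines. The ALCL and activated T cell markers GZMB, BATF3, IL2RA and PRF1 were high on all 12 arrays (8.54 to 12.2), and TNFRSF8, which encodes CD30, was at 6.80 to 10.5. TMOD1, of the same list, ran from 3.96 to 10.3. Of 5 B cell markers 2 lay in the lowest 25% of genes, among them MS4A1 (2.83 to 3.37), and the other 3 reached 5.34 to 6.78. Of 4 NK cell markers 3 did, and the fourth, NKG7, which cytotoxic T cells also express, was at 8.24 to 12.1. In bulk RNA, fewer cells of a type and less RNA per cell cannot be told apart.

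The genomic setting of the members is shown first, because many of them share a host. By the RefSeq gene table (assembly GRCh38.p14), which was used without strand, 174 of the 192 lay inside 1 gene, 15 inside several and 3 inside none. The cluster with the most members was SNHG14, the imprinted transcript that carries the tandem SNORD115 and SNORD116 copies, with 39. GAS5, a non-coding host, held 7, MEG8, the imprinted host of SNORD113 and SNORD114, held 6, and RPL13A, which encodes a ribosomal protein, held 4. C/D box members were 60 to 205 bases long (median 81.0), H/ACA box members 123 to 236 (median 134.0) and small Cajal body RNAs 125 to 421 (median 226.5). The annotated length ranges of the classes overlapped.

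Hosts that encode the translation machinery often begin with a terminal oligopyrimidine (TOP) start, known for tying translation to growth signals. The following RefSeq windows (GRCh38.p14) run from 40 bases before to 20 bases after the annotated start of non-coding hosts, on the strand of the host. They are shown because members in non-coding hosts had the highest median difference between lines of any kind of host. Capitals mark a TOP start, here a C at the start base followed by at least 4 further pyrimidines, read on that strand only.
SNHG5, chr6:85678714-85678773, minus strand: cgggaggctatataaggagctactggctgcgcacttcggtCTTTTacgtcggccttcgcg
ZFAS1, chr20:49278602-49278661, plus strand: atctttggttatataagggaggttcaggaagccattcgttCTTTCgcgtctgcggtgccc
SNHG32, chr6:31834876-31834935, plus strand: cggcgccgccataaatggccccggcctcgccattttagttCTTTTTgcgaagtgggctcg
SNHG1, chr11:62855866-62855925, minus strand: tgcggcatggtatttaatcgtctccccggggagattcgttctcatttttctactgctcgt
GAS5, chr1:173869026-173869085, minus strand: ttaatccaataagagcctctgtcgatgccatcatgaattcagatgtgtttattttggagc

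SNHG5, ZFAS1 and SNHG32 had the TOP start, and the annotated starts of SNHG1 and GAS5 did not meet this definition. Of all 27305 genes with a start window, 5.14% had such a start. Among the hosts of members it was found in 10 of the 11 ribosomal protein hosts with a window, 4 of 14 non-coding hosts and 11 of 50 other protein-coding hosts. A match describes these letters only.

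Across the 12 arrays the members covered nearly the whole signal range, with gene means from 1.66 to 11.0. Of the 192, 70 lay in the lowest 25% of all genes by mean signal and 45 in the highest 25%. The 5 highest C/D box members were SNORD13 (mean 11.0 ± 0.56, SD, n = 12 arrays), a U13 RNA with its own gene, SNORD74 of GAS5 (10.5 ± 1.08), SNORD13P3 (10.4 ± 0.85), SNORD43 of RPL3 (9.86 ± 1.58) and SNORD81 of GAS5 (9.47 ± 1.23). The highest H/ACA box members were SNORA57 (10.3 ± 1.13), SNORA24 (8.75 ± 0.73), SNORA5A (8.34 ± 0.77), SNORA3B (8.29 ± 1.58) and SNORA10 (8.14 ± 0.63). SCARNA9 (10.6 ± 0.30), SCARNA9L (10.5 ± 0.40) and SCARNA17 (9.56 ± 2.02) led the small Cajal body RNAs, followed by SCARNA12 (8.23 ± 0.57) and SCARNA7 (7.57 ± 1.03). Signals of different probe sets are not directly comparable, so these orders describe the array signal and not RNA amounts. SNORD13, SNORD13P3, the SNORA70 and SNORA5 copies and the SNORD113 to SNORD116 families are near copies, so 1 copy's own value is uncertain where probes may be shared.

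At the other end, SNORD115-28, SNORD115-41 and SNORD115-4 had means of 1.76, 1.74 and 1.66. All 20 SNORD115 and all 6 SNORD113 and SNORD114 members lay in the lowest 25%. Of the 20 SNORD116 members 15 did, and 5 did not: SNORD116-6, SNORD116-14, SNORD116-15, SNORD116-20 and SNORD116-21. The lowest H/ACA box members were SNORA19 (2.73 ± 0.55), SNORA2B (2.63 ± 0.56) and SNORA69 (2.52 ± 1.23), and the lowest small Cajal body RNAs were SCARNA4 (4.32 ± 0.91), SCARNA1 (3.98 ± 1.03) and SCARNA23 (3.57 ± 0.97).

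The class medians are given to show how each class varied across arrays, since their order rests on different probe sets. Per array, the C/D median was 3.42 to 6.02, the H/ACA median 5.25 to 6.07 and the median of small Cajal body RNAs 5.44 to 7.12. C/D minus H/ACA was below 0 on 11 of 12 arrays, with SUDHL-1 SP replicate 2 the exception at 0.39. Without the 46 members of SNORD113 to SNORD116, the same gap was above 0 on 6 of 6 SUDHL-1 arrays (0.51 to 1.69) and on 4 of 6 arrays of the other lines (-0.39 to 0.64). The 69 remaining C/D box members had array medians from 6.37 to 7.76 on SUDHL-1 arrays and from 4.87 to 6.06 elsewhere, ranges that did not overlap.

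**Figure D1:**
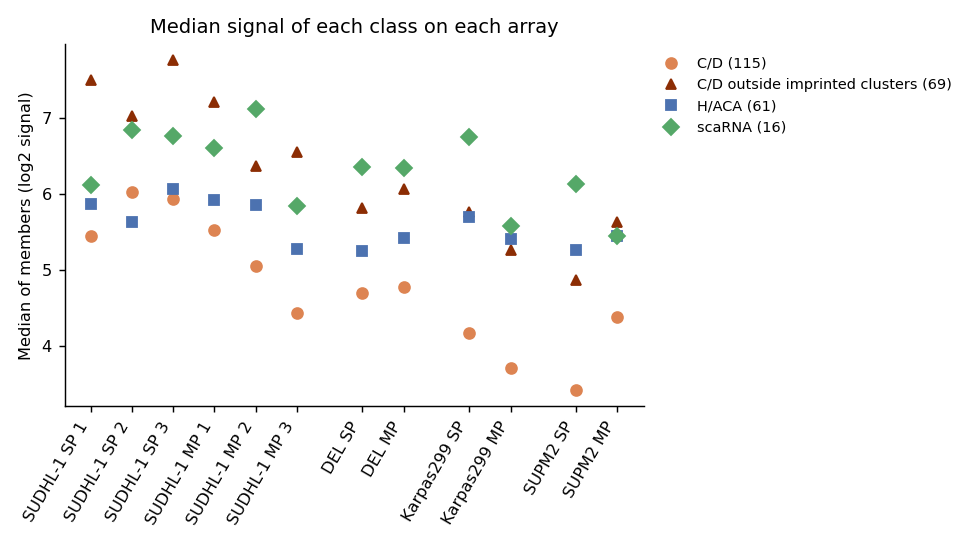
Each point is the median log2 signal (vertical axis) of 1 class on 1 array (horizontal axis), with the number of members in the legend. C/D box members outside the imprinted clusters reached 6.37 to 7.76 on the 6 SUDHL-1 arrays and 4.87 to 6.06 on the other 6.

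By kind of host, 17 of the 25 members in non-coding hosts lay in the highest 25% of genes by signal, and their median mean signal was 7.63. It was 6.44 for the 31 members in ribosomal protein genes and 5.19 for the 73 in other protein-coding genes, again over different probe sets.

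The first comparison set SUDHL-1 against the mean of DEL, Karpas299 and SUPM2 (limma, 12 arrays, line and population as terms). Its p-values measure the spread between arrays of a line and not the spread between lines. Of the 192 members, 75 were higher and 22 lower in SUDHL-1 at an adjusted p under 0.05. Over all 18417 genes, 65.6% were called, 16.4% higher and 49.2% lower, and the median difference of all genes was -0.33, against 0.38 for the members. SUDHL-1 has its own set of arrays, whose medians lay lower, so line and array set cannot be told apart. After quantile normalization of the deposited columns, 92 members were higher and 9 lower, when 51.0% of all genes were called, 4792 higher and 4597 lower, and the median of all genes was 0.01. After centring each array on its median, 122 members were higher and 4 lower, when 54.2% of all genes were called, 6381 higher and 3605 lower, with a median of all genes of 0.13. Under all 3 scalings more members were higher than lower. Marker lists moved with the lines as well. Of the 6 ALCL and activated T cell markers 4 were lower in SUDHL-1 and 1 higher (median -1.37), of 5 B cell markers 2 were lower and of 6 myeloid markers 3. Of 4 NK cell markers 1 was higher and 1 lower, of 4 erythroid and platelet markers 4 were lower, of 5 stromal markers 4, and of 5 neuronal markers 3 were lower and 1 higher. The mean level of the myeloid list was 4.73 to 4.94 against 5.33 to 6.08, with CSF1R at 4.90 to 5.55 against 7.45 to 8.59 and LYZ at 2.44 to 3.25 on all arrays. The part of these shifts in the result was not tested.

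C/D box members had the largest share of higher calls among the classes. Of the 115, 51 were higher and 6 lower, with a median difference of 0.50, and outside the imprinted clusters 41 of 69 were higher and 4 lower, with a median of 1.10. Of the 61 H/ACA box members, 19 were higher and 14 lower (median 0.16). Of the 16 small Cajal body RNAs, 5 were higher and 2 lower (median 0.07). The difference between the classes was not tested.

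The members also differed by kind of host. In non-coding hosts 18 of 25 were higher and 2 lower (median 1.49), in ribosomal protein hosts 20 of 31 were higher and 1 lower (median 1.32), and in other protein-coding hosts 20 of 73 were higher and 13 lower (median 0.13). Of these members 0, 1 and 24 lay in the lowest 25% of genes by signal. Class and signal were not held apart from kind of host, and the difference between kinds of host was not tested. Members whose host had a TOP start were higher in 21 of 37 cases and lower in 3 (median 1.03). Outside the imprinted clusters, those whose host window had no TOP start were higher in 27 of 71 cases and lower in 13 (median 0.41). This grouping used annotated start bases only, and the group without a TOP start included the members of GAS5, SNHG1 and RPL3. The difference between the 2 groups was not tested. For comparison, 179 microRNA genes had a median difference of -0.23.

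**Figure D2:**
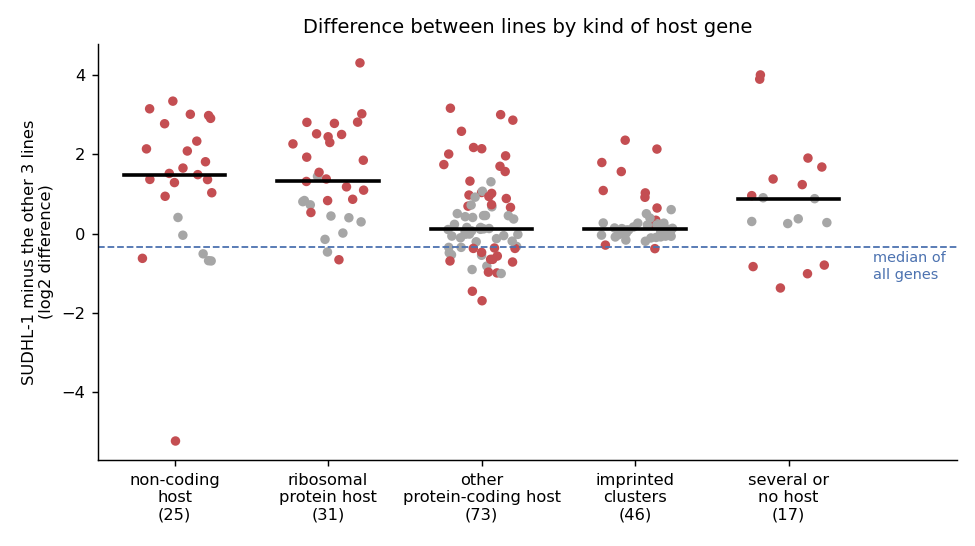
Each point is 1 member, placed by its log2 difference between SUDHL-1 and the mean of the other 3 lines (vertical axis) within its kind of host (horizontal axis, number of members in brackets); red points passed an adjusted p of 0.05 and grey points did not. Black bars are medians (1.49, 1.32, 0.13, 0.12 and 0.88 from left to right) and the dashed line is the median of all genes, -0.33.

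The member with the smallest p ran against this trend. SNORA22 (Entrez Gene 677807), an H/ACA box RNA, was at 3.57 to 4.45 (median 3.88) on the 6 SUDHL-1 arrays and at 8.77 and 7.98 in DEL, 9.10 and 9.02 in Karpas299 and 10.4 and 9.66 in SUPM2 (SP, then MP). The groups stood apart by more than 3 log2 units. SUDHL-1 was lower by a log2 difference of -5.23 ± 0.14 (SE; limma adjusted p = 1.32e-09). The gene that contains it, LINC03006, had means of 4.35 in SUDHL-1 and 4.61 in the other lines, a difference of -0.27 (adjusted p = 0.0301). Copies of SNORA22 exist elsewhere in the genome, so which copy gave the signal is uncertain.

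Among those higher in SUDHL-1, SNORA62, an H/ACA box RNA within RPSA, had the smallest p. It was at 7.37 to 8.24 (median 7.93) in SUDHL-1 and 4.07 to 6.22 (median 5.11) in the other lines, a difference of 2.78 ± 0.13 (SE; limma adjusted p = 6.06e-08). SNORD49A, in the non-coding host SNHG29, was at 8.39 to 9.37 (median 8.77) against 5.69 to 7.32 (median 6.49), a difference of 2.33 ± 0.19 (limma adjusted p = 2.97e-06). Neither pair of groups overlapped. SNORA75, within the nucleolin gene NCL, was at 6.15 to 7.37 (median 6.99) against 3.05 to 5.53 (median 3.44), a difference of 3.16 ± 0.27. SNORA33, within RPS12, was at 7.99 to 9.62 (median 9.20) against 6.22 to 6.90 (median 6.46), a difference of 2.52 ± 0.22. SNORD43, within RPL3, was at 10.6 to 11.8 (median 11.2) against 7.45 to 9.43 (median 8.40), a difference of 2.81 ± 0.31. These 3 also separated the lines completely, with limma adjusted p from 3.70e-06 to 2.02e-05. SNORD116-1 was dim in both groups but separate (4.02 to 5.10 against 2.57 to 3.30, difference 1.80 ± 0.19, limma adjusted p = 1.79e-05).

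In all, 28 of the 192 members lay wholly above the other lines in SUDHL-1 and 5 wholly below, against 7.51% and 29.1% of all genes. Besides SNORA22, the 4 lower members were SNORD13P3 (-1.45 ± 0.22, SE), SNORA70D (-0.79 ± 0.14), SNORA35 (-0.69 ± 0.12) and SNORA36C (-0.65 ± 0.13), with limma adjusted p from 0.000199 to 0.00110. SNORA35 lost the call under quantile normalization and centring, SNORA70D under quantile normalization and SNORA36C under centring, so only SNORA22 and SNORD13P3 of the 5 kept it under both. SNORD13, the near copy of SNORD13P3, was at 9.84 to 11.4 on SUDHL-1 arrays and 11.3 to 11.5 elsewhere.

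**Figure D3:**
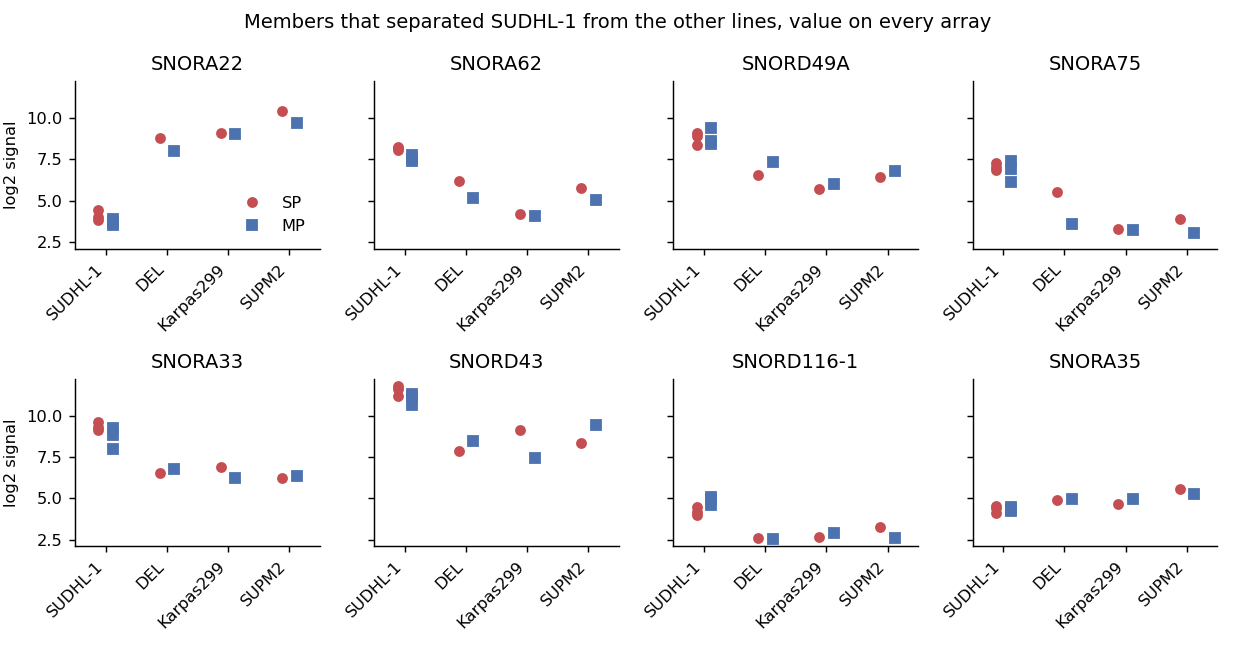
Each panel gives the log2 signal (vertical axis) of 1 member on every array, by line (horizontal axis), with SP arrays as red circles and MP arrays as blue squares. SNORA22 is at 3.57 to 4.45 in SUDHL-1 and 7.98 to 10.4 elsewhere, SNORA35 lies slightly lower in SUDHL-1, and the other 6 members are higher in SUDHL-1 on every array.

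Members of some hosts were mostly called in the same direction, and those of other hosts were not. Higher calls were frequent by class and kind of host, as given above. Whether members of a host moved together beyond those shares was not tested. Of the 7 GAS5 members, 6 were higher in SUDHL-1, from 1.29 for SNORD81 to 3.01 for SNORD75. SNORD75 was at 8.67 to 10.3 on the SUDHL-1 arrays and at 3.42 to 7.80 on the others. SNORD44, a C/D box RNA often used as a reference in small RNA assays, was at 7.58 to 9.22 against 5.54 to 8.52, with overlap (difference 1.52 ± 0.39, SE, limma adjusted p = 0.00528). The exception, SNORD77, was at 3.03 to 5.62 against 3.31 to 6.62 (difference -0.68 ± 0.52, limma adjusted p = 0.265). GAS5 itself, SNHG1 and SNHG5 had no probe set with 1 symbol and were not analysed here.

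Members of the other hosts printed above were also higher in SUDHL-1. Those hosts were shown because of the difference between lines, so their values are no further support for it. ZFAS1 and SNHG32 held 1 member each and cannot show members moving together. In SNHG1, SNORD30 was at 8.16 to 10.5 in SUDHL-1 and 4.25 to 7.78 elsewhere (difference 3.34), and SNORD28 at 7.76 to 9.81 against 3.83 to 9.42 (difference 1.81). In SNHG5, SNORD50B was at 9.28 to 10.5 against 3.64 to 8.81 (difference 2.77) and SNORD50A at 8.77 to 10.1 against 6.83 to 9.69 (difference 1.03). SNORD12C of ZFAS1 was at 7.53 to 9.24 against 2.62 to 6.26 (difference 3.15), while ZFAS1 itself was at 12.3 to 12.5 against 11.1 to 11.9 (difference 0.85). All 6 of these members, including SNORD52 of SNHG32 (8.23 to 10.5 against 5.12 to 7.36, difference 2.91), passed the adjusted threshold (limma adjusted p from 0.000223 to 0.0279). In protein-coding hosts, all 3 members of RPL3, RABGGTB and RPL23A each were higher in SUDHL-1, with differences of 0.53 to 2.81, 0.89 to 2.86 and 1.10 to 2.26. In NCL 2 of 3 were higher (0.05 to 3.16). None of the 4 in RPL13A passed in either direction (-0.14 to 0.84), and in TBRG4 1 of 3 was lower (-0.36 to 0.13). Of the 39 SNHG14 members 9 were higher and 1 lower (-0.38 to 2.36), and of the 6 in MEG8 1 was lower (-0.29 to -0.02).

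Hosts and members could be set side by side in 88 pairs over 67 measured hosts. The difference between SUDHL-1 and the other lines had a median of 0.42 for members and 0.08 for hosts. Across pairs, which share hosts and arrays and are not independent, Spearman's rho of the 2 differences was 0.24, and 0.48 over the 33 C/D pairs. In the 16 ribosomal protein pairs the member's difference was above its host's in 15, with medians of 1.35 and 0.02. In these pairs the median signal was 6.29 for members and 12.4 for hosts, when the highest value of any gene was 13.5. Whether such high signals narrowed the host differences was not tested.

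DEL, Karpas299 and SUPM2 were then compared with each other, with 2 arrays a line (SP and MP) and a spread estimated over all 12 arrays. Few members differed. DEL was higher than Karpas299 in 6 members and lower in 0, when 5.2% of all genes were called, 2.95% higher and 2.25% lower. DEL was higher than SUPM2 in 9 and lower in 3, when 8.34% were called, 5.6% higher and 2.74% lower. Karpas299 was higher than SUPM2 in 2 and lower in 4, when 10.7% were called, 6.58% higher and 4.12% lower. In all 3 comparisons the share of members called was below that of all genes in this fit. That order did not hold in all the fits on fewer arrays given below. For DEL against Karpas299 the median SE was 0.52 for members and 0.24 for all genes. The part of this wider spread in the shares was not tested. At an unadjusted p under 0.05 there were 28, 31 and 25 members, against 16.1%, 21.8% and 22.6% of all genes, shares above those of the members.

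Within SNORD116, copies differed between these lines in a graded way. SNORD116-14 was at 7.83 and 8.81 in DEL, 4.91 and 4.56 in Karpas299 and 2.93 and 2.82 in SUPM2 (SP, then MP), and at 7.11 to 7.83 in SUDHL-1. DEL exceeded Karpas299 by 3.58 ± 0.34 (SE; limma adjusted p = 0.00011) and SUPM2 by 5.44 ± 0.34 (4.12e-06), and Karpas299 exceeded SUPM2 by 1.86 ± 0.34 (0.00558). SNORD116-21 followed the same order, with 7.78 and 8.31 in DEL, 4.97 and 5.76 in Karpas299 and 2.60 and 2.66 in SUPM2. Its differences were 2.68, 5.41 and 2.74, each with an SE of 0.45 (limma adjusted p = 0.0059, 4.24e-05 and 0.003). Thus these copies ranged from a level in the upper signal range down to that of the dimmest genes.

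The other bright SNORD116 copies differed in their order. SNORD116-20 was at 7.52 and 7.44 in DEL, 4.13 and 5.14 in Karpas299 and 5.16 and 4.39 in SUPM2, so Karpas299 and SUPM2 overlapped. SNORD116-15 stayed bright in every line, at 9.34 and 9.70 in DEL, 7.78 and 8.18 in Karpas299 and 7.28 and 7.37 in SUPM2 (DEL minus SUPM2 2.20 ± 0.40, limma adjusted p = 0.00658). SNORD116-6 ran the other way, at 5.81 and 6.58 in DEL and 7.58 and 9.52 in SUPM2 (difference -2.36 ± 0.58, limma adjusted p = 0.0317). The 15 dim copies included 1 lone high value, SNORD116-11 on SUDHL-1 SP replicate 3 (6.85, against 2.15 to 2.90 on the other 11 arrays). The 20 SNORD115 members had no call in any of the 3 comparisons.

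**Figure D4:**
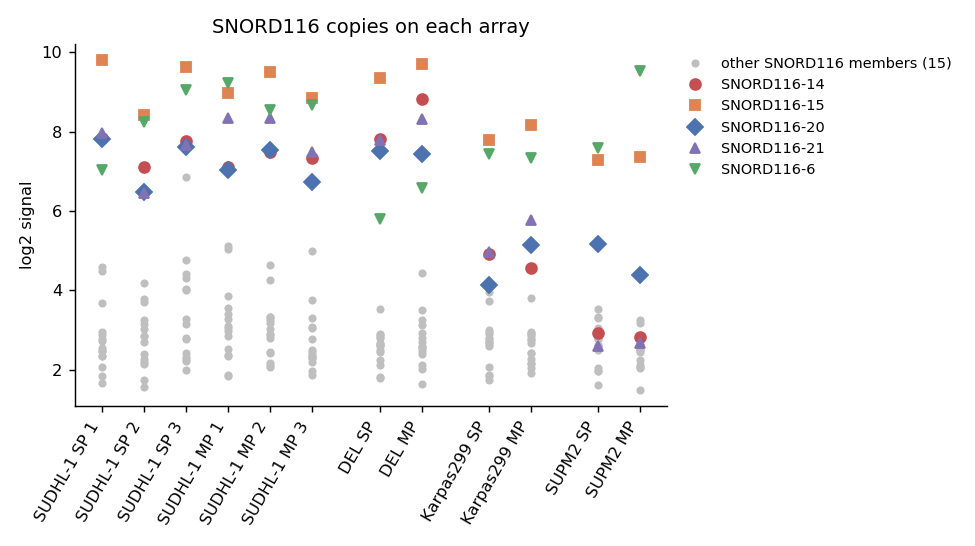
Points are the log2 signal (vertical axis) of the 20 SNORD116 members on each array (horizontal axis), with 5 copies in colour and the other 15 in grey. SNORD116-14 and SNORD116-21 fall from 7.78 to 8.81 in DEL to 2.60 to 2.93 in SUPM2, while SNORD116-15 and SNORD116-6 stay at 5.81 or above on all arrays.

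Other members that separated these lines came from both classes. SNORA62 was lowest in Karpas299 (4.18 and 4.07), below DEL (6.22 and 5.17) by 1.57 ± 0.22 (limma adjusted p = 0.00199) and below SUPM2 (5.79 and 5.06) by 1.30 ± 0.22 (0.00377). SNORD105 was highest in DEL (5.80 and 5.55), above Karpas299 (4.14 and 3.90) by 1.65 ± 0.31 (0.0111) and above SUPM2 (3.58 and 4.13) by 1.82 ± 0.31 (0.00439). SCARNA11, at 8.24 and 8.32 in DEL and 4.62 to 4.98 in the other lines of this comparison, exceeded Karpas299 by 3.48 ± 0.89 (limma adjusted p = 0.0499). That last call was lost after centring, with a trended robust variance and when all probe sets were tested.

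SNORA22 was graded too, lowest in DEL and highest in SUPM2 (DEL minus SUPM2 -1.66 ± 0.24, limma adjusted p = 0.00171; Karpas299 minus SUPM2 -0.97 ± 0.24, 0.0258). SNORD78 of GAS5 was at 8.71 and 8.79 in DEL and 5.83 and 6.68 in SUPM2 (2.49 ± 0.48, 0.00893). SNORA2A, within KANSL2, was at 2.29 and 2.55 in Karpas299 and 3.54 and 5.95 in SUPM2 (-2.33 ± 0.44, 0.00673), and SNORD81 of GAS5 at 6.86 and 8.06 against 11.4 and 8.79 (-2.62 ± 0.65, 0.0265). Without the MP arrays the SNORA2A difference was -1.25, the high value being on the SUPM2 MP array. For SNORD81 the difference was -0.73 without the SP arrays, the high value being on the SUPM2 SP array (11.4). With the SP arrays left out, the counts of members called were 2, 4 and 3 for the 3 comparisons in the order given above, against 0.635%, 1.4% and 2.24% of all genes. With the MP arrays left out they were 5, 9 and 12, against 0.918%, 1.46% and 2.19%.

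The study's central contrast is SP against MP, and SUDHL-1 is the line with replicates. No member passed an adjusted p of 0.05 (limma, 6 arrays), nor did any of the 18417 genes (0.0%). At an unadjusted p under 0.05 there were 18 of 192 members, or 20 with a trended robust variance, against 3.13% of all genes. Leaving out 1 array at a time gave 16 to 35, with 32 without SP replicate 2 and 35 without MP replicate 1. The median SP minus MP difference was 0.20, with 127 members above 0 against 49.9% of all genes. It was 0.18 for C/D box members, 0.27 for H/ACA box members and -0.08 for small Cajal body RNAs. Members in ribosomal protein hosts had a median of 0.62, and 27 of 31 were above 0. The median over all members fell to 0.07 without MP replicate 3 and to -0.02 without both arrays numbered 3, so its size depended on those arrays. The 56 replication-dependent histone genes, whose RNAs also end without poly(A), had a median difference of 1.10, and 31 of them an unadjusted p under 0.05. Their part in the result was not tested.

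The members of smallest p were read as values, since none passed. SNORD51, within the elongation factor gene EEF1B2, was at 7.03, 6.34 and 6.28 on the SP arrays and 4.78, 5.05 and 4.14 on the MP arrays, a difference of 1.90 ± 0.30 (SE). All SP values lay above all MP values. SNORD54 of RPS20 was at 9.27, 8.35 and 9.67 against 7.81, 7.70 and 6.45 (1.78 ± 0.45). SNORD20 of NCL was at 4.04, 4.15 and 4.43 against 2.87, 2.92 and 3.76 (1.03 ± 0.26). These too were separate between SP and MP. The hosts EEF1B2, RPS20 and NCL had SP minus MP differences of 0.03, -0.03 and -0.07.

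On the other side, SNORD116-1 was at 4.48, 4.18 and 4.02 in SP and 5.10, 4.63 and 5.0 in MP (-0.68 ± 0.19). SNORD56B, within SIPA1L1, was at 2.42, 3.01 and 2.18 against 3.12, 4.63 and 4.03 (-1.39 ± 0.39). SNORA58 of MRPL3 was at 3.32, 3.57 and 3.08 against 6.69, 4.87 and 3.86 (-1.82 ± 0.63), and SNORA2A at 2.06, 2.11 and 2.45 against 2.59, 2.60 and 2.79 (-0.46 ± 0.16). SNORD56B, SNORA58 and SNORA2A were dim on all SP arrays. All 7 had a limma adjusted p of 1.00. In all, 9 members lay wholly above MP in SP and 6 wholly below, against 3.74% and 3.42% of all genes, which is close to the members' own shares.

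Differences of 2-fold or more were more frequent among members than among genes at large, and so was the spread between replicates. In SUDHL-1, 23 members differed by 2-fold or more, 18 higher in SP and 5 lower, against 0.755% of all genes (0.451% higher and 0.304% lower). The SD within SP and MP, pooled, had a median of 0.58 for members and 0.23 for all genes, and it exceeded 1 for 32 members (16.7%) against 0.728% of all genes. SNORD13P2 had the highest SD of all 18417 genes (2.48), with SP values of 8.37, 8.21 and 3.13 and MP values of 8.07, 6.13 and 4.39. Array-to-array correlations within SUDHL-1 were 0.904 to 0.952 over the members and 0.965 to 0.986 over all genes.

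Each other line gave 1 SP and 1 MP array, so these differences have no replicate check. In DEL, 14 members were at least 2-fold higher in SP and 36 lower, against 2.44% of all genes (1.07% higher and 1.37% lower). In Karpas299, 36 were higher and 11 lower, against 3.2% (2.0% and 1.19%). In SUPM2, 19 were higher and 43 lower, against 6.59% (3.3% and 3.29%). The direction thus differed by line, with more members higher in SUDHL-1 and Karpas299 and more lower in DEL and SUPM2. This difference in direction was not tested over samples.

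Single members differed widely within a pair. SNORD50B of SNHG5 was at 3.64 in SUPM2 SP and 8.40 in MP (-4.76), SNORD34 of RPL13A at 3.26 and 7.86 (-4.60) and SCARNA17 at 4.23 and 8.70 (-4.47). SNORD13P1 was at 1.76 in DEL SP and 6.81 in MP (-5.05), the lowest difference of all genes in that line. SNORA69 was at 6.27 in Karpas299 SP and 1.82 in MP (4.45), and at 1.96 to 3.23 on the other 10 arrays. For host groups, the mean of the SNHG1 members (SNORD28 and SNORD30) had an SP minus MP difference of -3.23 in SUPM2, 2.24 in Karpas299, -1.49 in DEL and 0.73 in SUDHL-1. The 3 RABGGTB members gave -2.09, 2.22, -0.02 and 0.69 in the same order. These hosts were picked after their values were seen, and members of other hosts differed in sign. Within GAS5 in SUPM2, SNORD75 was at -4.18 and SNORD81 at 2.59, and within NCL SNORD82 was at -4.28 and SNORA75 at 0.83.

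**Figure D5:**
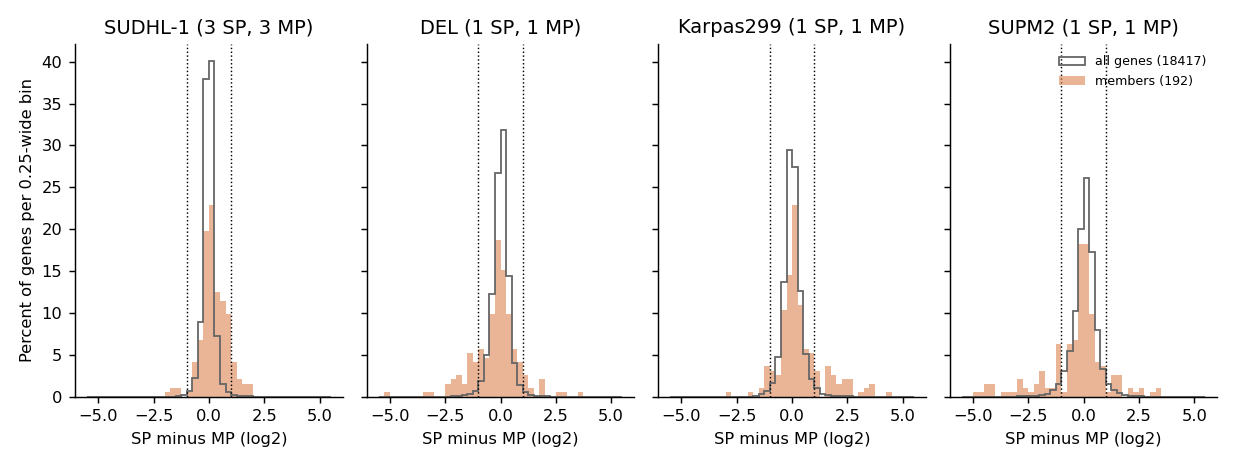
Histograms give the percent of genes (vertical axis) by SP minus MP log2 difference (horizontal axis, bins 0.25 wide) in each line, for the 192 members in orange and all 18417 genes as a grey outline; dotted lines mark 2-fold. The members spread more widely than all genes in each line, with 43 members at least 2-fold lower in SUPM2 SP and 36 at least 2-fold higher in Karpas299 SP.

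Over the 4 lines, with 1 difference a line, no member passed an adjusted p of 0.05 (limma; 0.0% of all genes). At an unadjusted p under 0.05 there were 25 members, against 4.91% of all genes, and 4 with a trended robust variance. SP was higher in all 4 lines for 20 members (10.4%, against 8.09% of all genes) and lower in all 4 for 15 (7.81%, against 5.66%). SNORD1A, in the non-coding host SNHG16, had the smallest p, with differences of 2.02 in SUPM2, 1.97 in Karpas299, 1.34 in DEL and 1.31 in SUDHL-1 (mean 1.66 ± 0.39, SD, n = 4 lines, limma adjusted p = 0.477). Within SUDHL-1 its values ran from 2.56 to 6.49 in SP and 2.33 to 5.83 in MP, so the groups overlapped there.

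Others with the same sign in every line were SNORA38 (mean 1.11 ± 0.52, SD), SCARNA10 (1.81 ± 1.00) and SNORA62 (0.62 ± 0.39), all higher in SP. SNORA14A (-0.88 ± 0.25), SCARNA7 (-0.48 ± 0.04), SCARNA23 (-0.69 ± 0.41) and SNORD116-21 (-0.52 ± 0.32) were lower in each line. SCARNA7, which lies in KPNA4, had the narrowest range, from -0.44 to -0.52. The limma adjusted p of these 7 was 0.918.

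Whether SP minus MP in SUDHL-1 differed from the other 3 lines was tested as an interaction, and no member passed (limma, 0.0% of all genes). At an unadjusted p under 0.05 there were 16, or 17 with a trended robust variance, against 3.59% of all genes. SNORD34 had an SP minus MP difference of 0.72 in SUDHL-1 and -2.59 in the other lines, and SNORD41, within TNPO2, 0.56 and -2.95. SNORD20 had 1.03 and -0.48, and SNORD51 1.90 and 0.47. In the opposite direction were SNORD56B (-1.39 and 0.33), SNORA58 (-1.82 and 0.62), SNORD116-1 (-0.68 and 0.17) and SNORA71A (-0.15 and 1.40), all with limma adjusted p of 1.00.

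The proteins that build and use these RNAs were taken as lists. None of their genes passed in any SP against MP comparison. Between SUDHL-1 and the other lines, 16.4% of all genes were called higher and 49.2% lower, and line and array set cannot be told apart. Both measured C/D core genes were higher in SUDHL-1. FBL, the methyltransferase fibrillarin, was at 12.5 to 12.6 against 10.8 to 11.5 (difference 1.34, limma adjusted p = 8.46e-07), and NOP58 at 10.9 to 11.2 against 9.19 to 10.4 (1.10). Of the 4 H/ACA core genes, DKC1, which encodes dyskerin, was at 10.6 to 10.9 against 7.81 to 10.1 (1.53), and GAR1 at 9.95 to 10.5 against 7.83 to 8.86 (1.79). NOP10 was lower, at 10.6 to 11.2 against 11.3 to 11.6 (-0.53), and NHP2 did not pass (-0.53, limma adjusted p = 0.0686).

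Against the same shares of all genes (16.4% higher and 49.2% lower), 10 of 14 genes of the assembly and modification list were higher and 2 lower (NAF1 and ZNHIT3). Of the trimming and decay list, 7 of 9 were higher and 0 lower. Of the 4 Cajal body genes, 2 were higher, including COIL (1.80), and WRAP53 was lower (-0.51). Among the other lines, DKC1 was lower in SUPM2 (8.36 and 7.81) than in DEL (9.98 and 10.1) by 1.97 and than in Karpas299 (10.0 and 9.56) by 1.70 (limma adjusted p = 0.000274 and 0.00066). NOLC1, a chaperone of small nucleolar RNPs, was at 10.7 and 11.0 in DEL, 9.95 and 9.75 in Karpas299 and 8.56 and 8.70 in SUPM2, with all 3 differences past the adjusted threshold. The part of these proteins in the levels of the RNAs was not tested.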

How the data were processed

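The deposited log2 signals of 12 Affymetrix arrays, computed with RMA (version not stated) according to the authors' processing notes, were used without change. The sources do not state whether all arrays were normalized jointly. Amplification used a whole-transcript kit, per the labels' protocols. Of 33297 probe sets, 19460 had 1 gene symbol in the platform annotation, 1754 several and 12083 none. The probe set of highest mean stood for a gene, which left 18417 genes, and 5 of the 192 members had several probe sets. A further 76 probe sets that name a small nucleolar RNA among several symbols were left out. All 192 members matched RefSeq (GRCh38.p14) by Entrez identifier. A host is a RefSeq gene that contains the member, without regard to strand, which the gene table does not give, although the same strand had been planned.

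Differences were fitted with limma 3.58.1 in R 4.3.3 on all genes, and two-sided p-values were adjusted by the Benjamini-Hochberg method. The main fit of each comparison was tested on simulated data with independent noise, and the alternative fits were not. Members were named by rule: up to 6 a direction, by p, of those called with separate groups of arrays, or the 4 of smallest p in each direction as values where fewer than 3 passed. The 5 highest and 3 lowest of each class, SNORD13, SNORD44 and members by host were also named, and others were named after their values were seen. A host that the rule would name, and a member in it, are not reported here. The members and lists were chosen with earlier results of these data known.

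The main fit of SP against MP in SUDHL-1 had no pairing. Alternatives dropped dim genes, rescaled arrays, averaged or tested all probe sets, changed the variance, dropped arrays or lines, or added a replicate block. Those without both arrays numbered 3, without SP or MP arrays, without SNORD113 to SNORD116, and on the 2-fold counts were chosen after seeing the data.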

Additional observations from a re-analysis of the deposited data

How the results depend on the processing

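No call of a member named by rule for a comparison changed direction under the alternatives run. Other members were not checked for this. Centring raised all differences between SUDHL-1 and the other lines, so small ones below 0 could turn positive. The SUDHL-1 median over members was 0.95 without the lowest 25% of genes and 0.84 after centring, against 0.38. Without the lowest 25% the class medians averaged 6.86 (C/D) and 6.50 (H/ACA), C/D minus H/ACA was 0.36 and 2 members were at least 2-fold lower in SUDHL-1 SP. Without SNORD113 to SNORD116 the C/D median was 6.32 and the gap 0.73, against -0.80. Counts of calls for DEL against Karpas299 and SUPM2 were 3 and 7 without those copies and 2 and 4 without SP arrays. For Karpas299 against SUPM2 they were 3 without SP arrays, 12 without MP arrays and 15 on the 6 arrays of the 3 lines. Leaving out 1 SUDHL-1 array at a time kept 0 calls for SP against MP and gave 86 to 94 calls, of 97, between SUDHL-1 and the other lines. The SP minus MP median ranged from 0.07 to 0.30 in SUDHL-1 and from 0.04 to 0.08 over 4 lines, where leaving out 1 line gave 0.01 to 0.12. The labels state no pairing of replicates. Correlations between SP and MP were -0.00374 to -0.132 for the same replicate number and -0.0850 to 0.134 for different numbers. With 3 arrays a group they cannot decide whether samples were paired. With the replicate block 0 members passed and 35 had an unadjusted p under 0.05. The causes of these shifts were not tested. Of the 192 members, 70 lay in the lowest 25% of genes by signal, which limits what their differences can show.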

Other observations

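The 76 probe sets that carried a small nucleolar RNA symbol together with others were left out of the members. Their median signal was 6.77 to 7.82 on the SUDHL-1 arrays and 4.87 to 6.70 on the others, and 59 of 76 had a SUDHL-1 minus other lines difference above 0, with a median of 1.20. These differences were not tested. Between SP and MP, 8 were at least 2-fold higher and 0 lower in SUDHL-1, 3 and 12 in DEL, 19 and 9 in Karpas299 and 6 and 20 in SUPM2.

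The genes that flank SNORA22 in RefSeq did not share its difference in size. Among the 10 nearest measured genes, SUDHL-1 minus the other lines ran from -1.56 for ERV3-1 to 0.48 for CRCP, against -5.23 for SNORA22. VKORC1L1 (0.12), GUSB (-0.19), ZNF92 (-0.10) and CRCP did not pass the adjusted threshold. The others passed and were lower in SUDHL-1, among them the adjacent LINC03129 (-1.31, limma adjusted p = 0.000328). Of all genes 49.2% were called lower.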
